A study of Caenorhabditis elegans with 8 samples.

Results

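Repair of each DNA strand was compared between wild-type (WT) and csb-1 L1 larvae of Caenorhabditis elegans in 4 of the 8 XR-seq libraries of the series, 2 per strain. These were chosen because they were the L1 libraries made 1 h after UVB from the strain with both branches of excision repair and from the strain without the transcription-coupled branch. Of 19973 protein-coding genes on the 6 nuclear chromosomes, 17619 were tested, those averaging 40 or more reads per library with both strands counted. The template strand (TS) and the non-template strand (NTS) of each gene were counted and tested separately, as counts scaled to each library's kept reads (counts-per-million values, CPM), so that a gain on one strand could be told apart from a loss on the other.

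UV light joins neighbouring pyrimidines, mostly thymines, into cyclobutane pyrimidine dimers (CPDs), and nucleotide excision repair cuts out a short oligonucleotide that holds the dimer. Global repair finds dimers anywhere in the genome through XPC, whereas transcription-coupled repair is started by an RNA polymerase II stalled at a dimer of the strand it reads, the TS, and needs CSB, which csb-1 encodes. XR-seq captures the excised oligonucleotides and sequences them, so that a read marks the strand and place of a repaired dimer.

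The WT animals were of the N2 strain and the csb-1 animals of 1 mutant strain, both from the Caenorhabditis Genetics Center. Both were L1 larvae that were fed OP50 bacteria for a few hours after synchronised hatching, exposed to UVB and collected 1 h later, as whole animals. For context, 2 libraries of unirradiated WT L1 larvae and 2 of mixed-stage xpc-1 animals collected 1 h after UVB were read, the latter from a strain that lacks global repair and holds other stages. The sources used here do not say whether the replicates of a strain were separate cultures, so that the p-values measure the spread between these libraries, which may be technical.

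Kept reads numbered 8198054 and 3252700 in WT and 6628507 and 13203914 in csb-1, so that the 3 reads that a count of 0 allows stand for 0.227 to 0.922 CPM. The unirradiated libraries held 10260 and 12916 kept reads, and 50.04% and 50.38% of those in genes lay on the TS. Replicates correlated across genes with Pearson's r of 0.965 (WT) and 0.978 (csb-1) for the TS, and of 0.956 and 0.979 for the NTS, where genes are not independent replicates. WT replicate 2 was the shallowest of the 4 and its reads carried a mean of 18.9 copies, against 1.60 to 3.29 in the other 3. The part of copy number in the results was not tested beyond counting each position once and counting all copies.

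The csb-1 gene itself was read first. It lies on chrX:15861294-15865918 (WBcel235, minus strand), and a stretch of 1650 bp within it, chrX:15862544-15864193, held 56 and 31 TS reads in WT and 0 and 0 in csb-1. On the NTS of the same stretch 35 and 15 reads were found in WT and 0 and 2 in csb-1. The stretch was placed by the lack of reads in the csb-1 libraries, so these counts are a description and no test of the labels. In the other 2975 bp of the gene TS reads stood at 15.004 and 20.9 CPM in WT and 13.6 and 12.7 CPM in csb-1, a smaller gap. The TS difference of the whole gene, 0.95 on the log2 scale, includes the reads missing from that stretch.

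Template sequences show where the reads behind these comparisons lay. The 60 bp of coding exon with the most TS reads over the 4 libraries, regardless of strain, are given for 4 of the genes with the largest TS gain among well-covered genes, for 1 chemoreceptor gene that was lower in WT on both strands, and for 1 gene with more NTS reads in WT. Each is the template strand, 5′ to 3′, from the RefSeq genome of WBcel235, with adjacent thymines, the usual CPD sites, in capitals.
K08D12.3 (chrIV:1710329-1710388, plus-strand gene): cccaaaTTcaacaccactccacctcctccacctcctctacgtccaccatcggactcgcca
rpl-12 (chrIV:13240215-13240274, minus-strand gene): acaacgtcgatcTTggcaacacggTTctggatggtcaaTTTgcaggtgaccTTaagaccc
ubl-1 (chrIII:3068391-3068450, plus-strand gene): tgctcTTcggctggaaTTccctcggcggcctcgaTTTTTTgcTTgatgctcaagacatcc
C49H3.3 (chrIV:7924392-7924451, plus-strand gene): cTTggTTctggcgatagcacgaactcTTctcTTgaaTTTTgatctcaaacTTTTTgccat
srt-35 (chrV:4261701-4261760, minus-strand gene): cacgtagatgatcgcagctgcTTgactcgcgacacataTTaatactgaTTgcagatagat
F14F9.8 (chrV:5130377-5130436, plus-strand gene): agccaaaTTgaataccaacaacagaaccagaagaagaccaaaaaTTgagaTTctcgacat

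In the window of K08D12.3, which holds a single thymine pair on the TS, 41 and 31 TS reads were found in WT and 9 and 14 in csb-1, against 0 to 3 NTS reads in each library. The ubl-1 window, with a run of 6 thymines, held 49 and 23 TS reads in WT and 16 and 15 in csb-1. In the F14F9.8 window the pattern was on the other strand, with 28 and 12 NTS reads in WT and 14 and 8 in csb-1 beside TS reads of 7 and 3 against 7 and 17. These are raw reads of libraries of unequal depth, and csb-1 replicate 2 was the deepest.

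Summed over genes, the TS was higher and the NTS lower in WT than in csb-1. TS reads stood at 339803 and 353088 CPM in WT, against 298642 and 304984 in csb-1. NTS reads stood at 278112 and 274692 CPM in WT, against 307581 and 312154 in csb-1. The groups did not overlap on either strand, and in WT the TS share of genic reads was 55.6% ± 0.885 (SD, n = 2), while csb-1 libraries had 49.3% ± 0.111 (SD, n = 2). With 2 libraries against 2, an exact two-sided permutation test cannot give a p under 0.333, and no other test of these sums was run.

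CPM are relative, so that a gain of reads in one place lowers the share of all others. The median gene differed between WT and csb-1 by -0.003 log2 units (TS) and by -0.23 (NTS). Scaled to reads between genes instead, which made up 9.64% and 9.57% of kept reads in WT and 10.1% and 9.88% in csb-1, these medians were 0.05 and -0.18. Scaled so that the NTS of the typical gene was equal in all libraries, they were 0.22 and -0.01. Which of these zero points holds for repair per animal cannot be told apart from read shares, and the difference between the strands of a gene, 0.25 log2 units at the median, is the same under each.

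**Figure D1:**
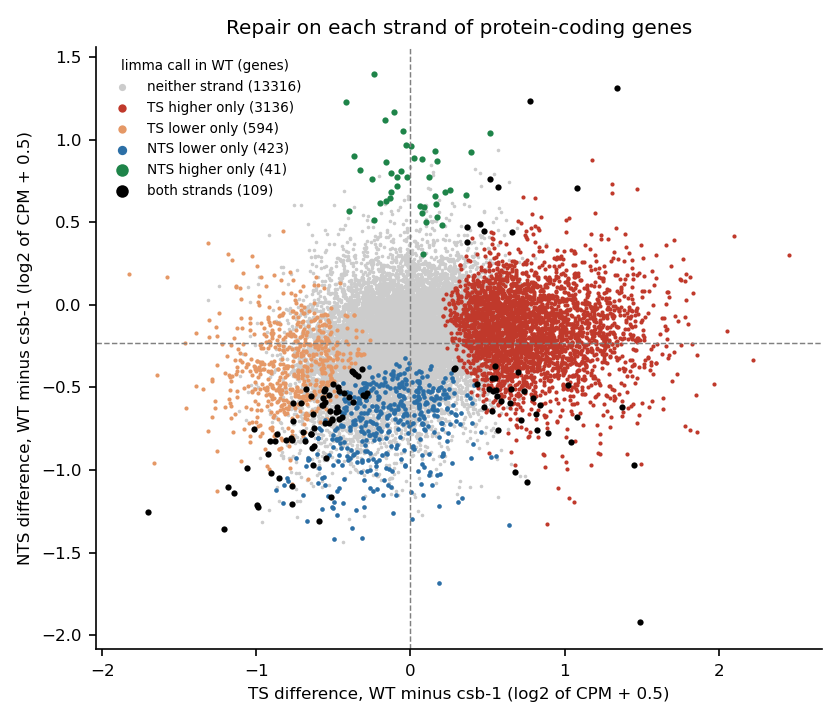
TS difference (x axis) against NTS difference (y axis) of each tested gene, WT minus csb-1 on the log2(CPM + 0.5) scale, with genes coloured by the strand on which they passed limma's test at an adjusted p under 0.05. Most called genes spread along the TS axis to the right, with NTS differences near or below 0.

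Among the calls on single strands, gains on the TS were the most frequent. By limma, with Benjamini-Hochberg adjustment over all genes tested and an adjusted p under 0.05, 3178 genes (18%) had more TS reads in WT and 661 (3.75%) had fewer. On the NTS, 51 genes (0.289%) had more reads in WT and 522 (2.96%) had fewer. TS gains made up 82.8% of TS calls at total scaling, 88.4% when scaled to reads between genes and 96.5% when scaled to the NTS. NTS gains made up 8.9%, 31.8% and 91.8% of NTS calls in the same order, so that the direction of NTS calls rests on the scaling. Both other scalings shifted the TS differences upwards, so that TS gains could hardly lose their call by them. All 3178 TS gains were also called under both, which is thus no check of them. When scaled to the NTS, 192 of the 661 TS losses and 12 of the 522 NTS losses remained called. With 1 library left out, 54 (without csb-1 replicate 2) to 600 (without WT replicate 1) of the TS losses and 1 to 509 of the NTS losses remained called, and 2147 to 3049 of the TS gains.

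Taking the strands together, 3136 of the genes with a TS gain passed the test on that strand alone, and the median NTS difference of these was -0.14, above the -0.23 of all genes. Of the 3178 genes with a TS gain, 32 also had an NTS loss and 10 an NTS gain (0.182% and 0.0568% of all genes tested). Of these 10, 8 overlap an annotated gene on the other strand. Among all 17619 tested genes, whatever their TS call, 522 (2.96%) had an NTS loss and 51 (0.289%) an NTS gain. A TS loss with an NTS gain was called in no gene, with 4047 genes above and 1804 below on the TS at an unadjusted p under 0.05, and 201 and 4113 on the NTS. With 661 TS losses and 51 NTS gains in all, that count of 0 says little. Losses on both strands were called in 67 of the 661 genes with a TS loss (0.38% of all genes tested). The genes with a TS loss alone, 594, had a median of -0.76 (TS) and -0.37 (NTS).

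Tested directly, the TS change exceeded the NTS change in 584 genes (3.31%) and fell short of it in 5 (0.0284%), by limma on the difference between the strands. The 5 genes, named here after their values were seen, were klp-17, ZK930.7, F26F4.2, Y54G2A.15 and B0478.3. These counts rest on single libraries: 4305 and 684 genes were called without WT replicate 1, 1550 and 67 without WT replicate 2, and 0 and 0 without either csb-1 library (the strain left with 1 library is then assumed to vary like the other). TS losses likewise numbered 1870 without WT replicate 1, 161 without csb-1 replicate 1 and 57 without csb-1 replicate 2. NTS losses numbered 3338 without WT replicate 1, 813 without WT replicate 2, 54 without csb-1 replicate 1 and 1 without csb-1 replicate 2. NTS gains numbered 208, 45, 29 and 12 in that order. TS gains ranged from 2161 to 3860, and 2147 to 3049 of the 3178 genes remained called when 1 library was left out.

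Among genes averaging 100 or more reads, with no annotated gene on the other strand and no overlap between the strains, 8 were taken for their TS gain. The first, dad-1, a subunit of the oligosaccharyltransferase that glycosylates proteins, had 16.3 and 18.4 TS CPM in WT and 3.77 and 4.39 in csb-1. Its log2 difference was 1.97 ± 0.20 (SE), with a limma adjusted p of 1.19e-06. On its NTS, 3.42 and 3.07 CPM in WT stood against 4.68 and 4.77 in csb-1, a log2 difference of -0.48 that did not pass the test (limma adjusted p = 0.29).

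The ribosomal protein gene rpl-12 had 23.8 and 30.4 TS CPM in WT and 8.30 and 6.44 in csb-1, a log2 difference of 1.81 ± 0.18 (SE). Its NTS values of 7.68 and 6.76 in WT and 6.49 and 6.21 in csb-1 differed by 0.17 log2 units and were not called. For ubl-1, which encodes a ubiquitin-like protein joined to a small ribosomal subunit protein, TS reads stood at 21.2 and 25.8 CPM against 7.69 and 5.38. The gain in ubl-1 was 1.78 log2 units (TS) and 0.03 (NTS).

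K08D12.3 had 24.9 and 31.1 TS CPM in WT and 7.69 and 7.27 in csb-1, a difference of 1.83 log2 units. C49H3.3 had 18.3 and 16.6 against 4.38 and 5.07, a difference of 1.78. Both are named by their sequence in the annotation. dlc-1, a dynein light chain gene, W03C9.5 and the ribosomal gene rpl-31 completed the 8 genes with the largest gain among these, with log2 differences of 1.79, 1.78 and 1.80. In none of the 8 genes was the NTS difference called, where it ranged from -0.74 in C49H3.3 to 0.19 in dlc-1.

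Of the neighbouring genes that the study used as its example, vbh-1, a DEAD-box RNA helicase gene, had 55.9 and 71.9 TS CPM in WT and 31.7 and 27.5 in csb-1. Its log2 difference was 1.09 ± 0.13 (SE) on the TS (limma adjusted p = 4.86e-06) and -0.39 on the NTS (limma adjusted p = 0.121). mrpl-17, which encodes a mitochondrial ribosomal protein, had 7.93 and 10.1 TS CPM against 3.02 and 2.95. It gained 1.44 log2 units on the TS, while its NTS, at 2.20 and 2.46 against 3.77 and 3.79 CPM, differed by -0.60 (limma adjusted p = 0.234). NTS values of both genes were lower in each WT library than in each csb-1 library, without passing the test.

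**Figure D2:**
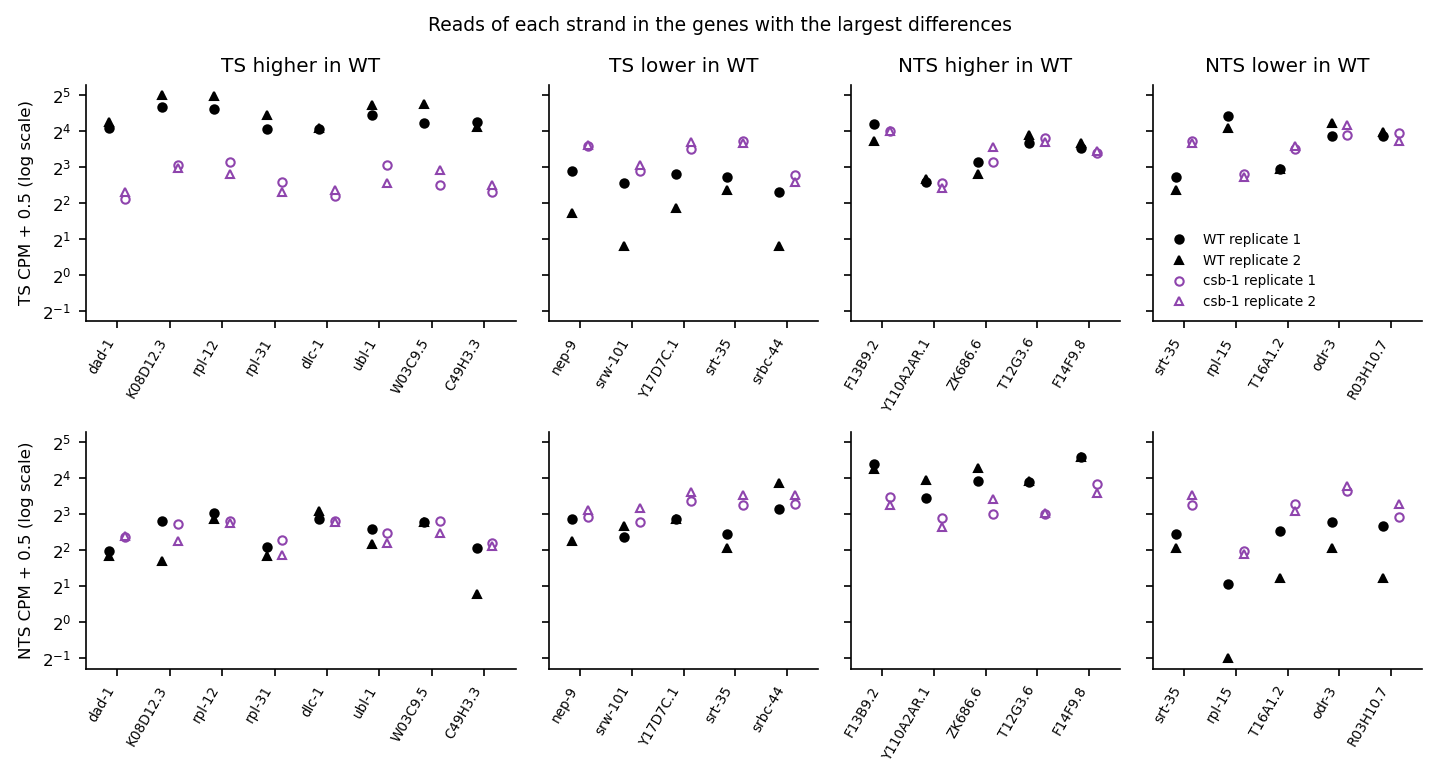
TS reads (top, CPM + 0.5 on a log axis) and NTS reads (bottom) in each of the 2 WT and 2 csb-1 libraries, for the genes with the largest gain or loss on each strand among those averaging 100 or more reads, with no opposite gene and no overlap between the strains on that strand. The separation of the strains on the strand that chose a gene was thus a condition of the choice, while in the 8 genes chosen for a TS gain the NTS points lie close together or WT lies lower.

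Among the gene families, those of protein synthesis and turnover had shares of TS gains far over the 18% of all genes. Of 76 cytosolic ribosomal protein genes tested, 74 had more TS reads in WT and none fewer, with rpl-11.1 (0.05) and rpl-42 (-0.40) not called. Their median difference was 1.37 log2 units on the TS, against -0.003 over all genes, and -0.24 on the NTS, against -0.23. Summed over the family, the TS held 1121 and 1174 CPM in WT and 477 and 372 in csb-1, while the NTS held 237 and 208 against 257 and 258. The WT sums were thus higher than both csb-1 sums on the TS by 2.70-fold at the mean, and lower on the NTS.

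Among the ribosomal genes without an opposite gene, the largest gain was in rpl-20, with 10.5 and 14.4 TS CPM in WT and 2.11 and 1.59 in csb-1, or 2.46 log2 units. rpl-15 was called on both strands. It had 20.7 and 16.3 TS CPM in WT against 6.49 and 5.98, and on the NTS 13 and 0 reads in WT against 23 and 43 in csb-1. The NTS call rested on the library without reads: without WT replicate 2 the difference was -0.89 with a limma adjusted p of 0.0985, and it was also lost without csb-1 replicate 1 (limma adjusted p = 0.24) and without csb-1 replicate 2 (0.562).

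All 8 genes of the chaperonin CCT, which folds actin and tubulin, and all 6 elongation factor genes had a TS gain, with medians of 1.21 and 1.19 log2 units. cct-5 carried the most reads of its family, 187 and 199 TS CPM in WT and 107 and 84.0 in csb-1, with NTS values of 135 and 116 against 124.8 and 104.1 that overlapped. Of 33 proteasome genes, 31 had a TS gain, with a median of 1.06 (TS) and -0.14 (NTS). The remaining proteasome genes, rpn-6.2 (0.21) and pas-1 (0.50), were not called.

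Genes of the respiratory chain, the V-ATPase and the mitochondrial ribosome had lower medians. Of 63 tested genes of the respiratory chain and ATP synthase, 42 had a TS gain, with a median of 0.89, and of 20 V-ATPase genes, which acidify organelles, 16 had one, with a median of 0.87. vha-9 had 15.5 and 16.0 TS CPM in WT against 5.13 and 4.09 in csb-1, and 4.88 and 6.76 against 5.58 and 5.53 on the NTS. Mitochondrial ribosomal protein genes were called less widely, 31 of 69 with a median of 0.63, and 15 of them without csb-1 replicate 1. The TS sums of the mitochondrial set were 702 and 805 CPM in WT and 467 and 508 in csb-1, without overlap.

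Among genes that act on RNA and in translation, TS gains were called in 8 of 9 RNA polymerase II subunit genes (median 0.91), 22 of 31 splicing factor genes (0.87) and 22 of 32 aminoacyl-tRNA synthetase genes (0.68). ama-1, the largest subunit of RNA polymerase II, had 76.8 and 85.5 TS CPM in WT and 50.4 and 52.2 in csb-1. Its NTS values of 33.4 and 34.1 in WT lay below the 40.6 and 41.7 in csb-1, and its log2 differences were 0.66 ± 0.10 (SE) for the TS and -0.28 for the NTS, the latter not called. hars-1, the histidyl-tRNA synthetase gene, had 46.7 and 52.9 against 22.03 and 18.8 TS CPM. rpb-2 was the polymerase gene without a TS call (0.39), and its NTS was called lower (-0.56).

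Histone genes could be read in part. In WT replicate 1, 1309 of their 2499 reads passed the mapping quality filter, and 8 of 72 members were tested. Of these, 6 had a TS gain, with medians of 1.22 (TS) and 0.01 (NTS). his-72, a variant H3 gene, had 17.7 and 16.6 TS CPM in WT against 6.79 and 6.36, and 18.5 and 16.6 NTS CPM against 19.5 and 17.4. The 31 major sperm protein genes, a marker of adult germ line, had too few kept reads to be tested.

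The libraries came from whole larvae, in which fewer cells of a type and less repair per cell cannot be told apart. In neurons, TS gains were called for all 4 markers, unc-18, unc-64, snb-1 and unc-13, which act in release of synaptic vesicles, at 1.04, 0.84, 1.27 and 0.28 log2 units. Over the list of synaptic release genes, however, 7 of 16 (43.8%) had a gain, against 18% of all genes, with a median of 0.26. The unc-13 call was lost without WT replicate 2 (limma adjusted p = 0.0624) and without csb-1 replicate 1 (0.0716). In muscle, unc-15 and unc-54, the paramyosin and myosin heavy chain genes, gained 0.77 and 0.74, whereas unc-22 (0.02) and myo-3 (0.27) were not called, and over the muscle list 11 of 22 genes had a gain. The intestinal markers ges-1, elt-2 and act-5 and the germ line markers pgl-1, glh-1 and gld-1 were not called on either strand, with TS differences of -0.34 to 0.28.

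Of 13 tubulin genes 4 (30.8%, against 18% of all genes) had a TS gain, tba-1 (1.38), tba-2 (1.51), tbb-1 (1.06) and tbb-2 (1.58). tbb-2 had 26.96 and 27.4 TS CPM in WT and 9.81 and 7.80 in csb-1, while tba-9, with the most reads of the family, had 25.1 and 24.9 against 25.5 and 22.5. Among 18 heat shock protein genes 7 (38.9%) had a gain. The largest among those without an opposite gene was in hsp-110, with 58.8 and 59.6 TS CPM in WT against 22.2 and 20.7. Of 18 excision repair genes 7 (38.9%) had a gain. rad-23, which encodes a partner of XPC, had 28.7 and 42.7 TS CPM in WT against 12.97 and 12.3. Nuclear hormone receptors were mixed, with 69 of 259 genes higher (26.6%) and 5 lower (1.93%) on the TS, against 18% and 3.75% of all genes. Fewer of them were called higher when either csb-1 library was left out, which was also so over all genes.

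**Figure D3:**
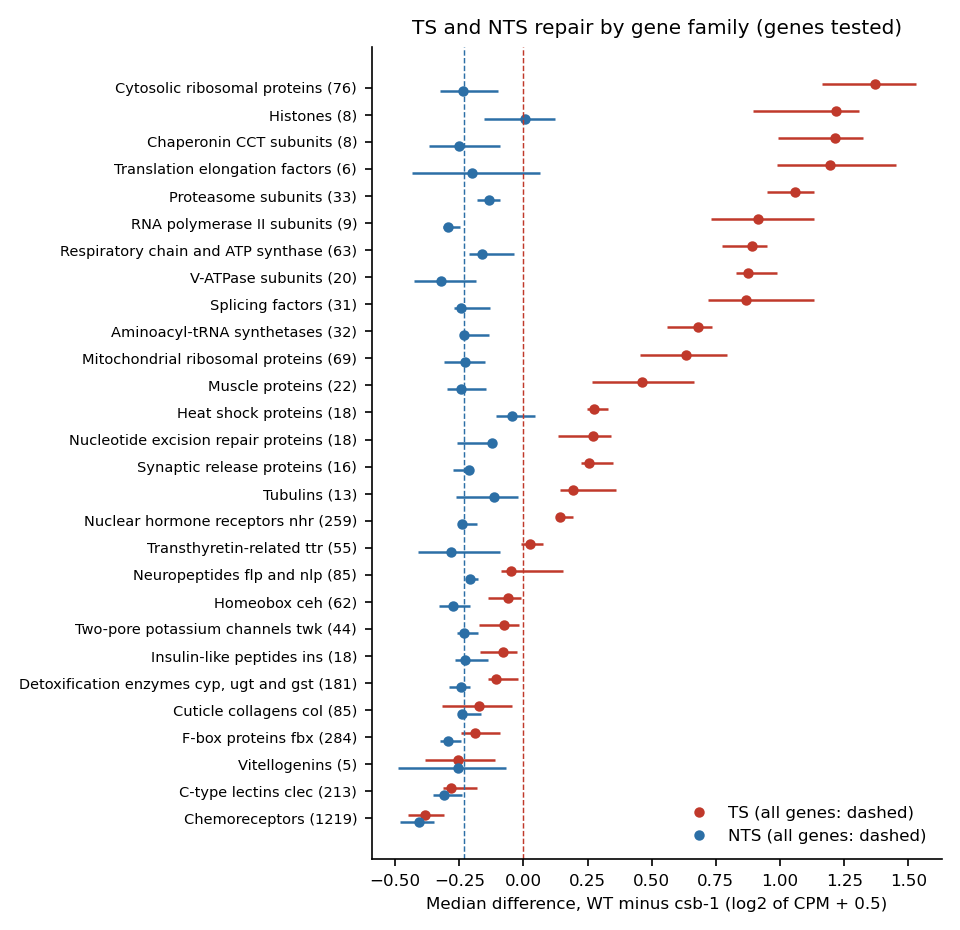
Median difference between WT and csb-1 of each gene family (log2 CPM, x axis) on the TS and the NTS, with lines from the lowest to the highest median among the 4 pairs of a WT with a csb-1 library, and dashed lines at the medians of all tested genes. TS medians range from -0.38 in chemoreceptors to 1.37 in cytosolic ribosomal proteins, while NTS medians stay between -0.41 and 0.01, or between -0.19 and 0.22 when scaled to the NTS, where the proteasome (0.09), respiratory chain (0.05), heat shock (0.19) and histone (0.22) medians are among those above 0.

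Chemoreceptor genes, most of which encode receptors used in few sensory neurons, had lower medians than all genes on both strands. Of 1219 tested, 1 had more TS reads in WT (srr-4) and 127 (10.4%, against 3.75% of all genes) fewer, and on the NTS 1 had more (str-118) and 61 (5%, against 2.96%) fewer. Their medians were -0.38 (TS) and -0.41 (NTS), against -0.003 and -0.23 over all genes. TS sums of 5932 and 5969 CPM in WT stood against 7280 and 8011 in csb-1, and NTS sums of 7503 and 7473 against 9555 and 10242. The strains overlapped on neither strand, and the WT means were 0.778 and 0.756 of those in csb-1.

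The count of TS losses among chemoreceptors was 319 without WT replicate 1, 22 without csb-1 replicate 1, 13 without csb-1 replicate 2 and 47 when scaled to the NTS, and the NTS losses were 359, 4, 1 and 4. The medians kept their sign in each of these, at -0.17 (TS) and -0.19 (NTS) when scaled to the NTS. By chromosome the TS median of the family lay between -0.25 on chromosome I and -0.43 on chromosome IV, and it was -0.37 in chromosome centres and -0.39 in arms.

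srt-35 was called on both strands, with 6.10 and 4.61 TS CPM in WT against 12.5 and 12.2, and 5.00 and 3.69 NTS CPM against 9.05 and 11.2. Its differences were -1.15 ± 0.21 (SE) on the TS (limma adjusted p = 0.000398) and -1.14 ± 0.24 (SE) on the NTS (limma adjusted p = 0.0112). The NTS call was lost without csb-1 replicate 1 (limma adjusted p = 0.0589) and without csb-1 replicate 2 (0.63). str-81, with the most reads of the family, had 58.8 and 53.8 TS CPM in WT against 73.6 and 72.2, but 6 annotated genes lie on its other strand, and its TS call was lost without WT replicate 2 (limma adjusted p = 0.0524), csb-1 replicate 1 (0.109) or csb-1 replicate 2 (0.0742). The chemoreceptor gene with a TS gain was srr-4, with 29.9 and 34.1 against 18.6 and 19.9 CPM and NTS values of 14.8 and 19.7 against 23.1 and 19.1 that overlapped.

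Among the other genes with the largest TS losses, chosen under the same conditions, nep-9, a gene of the neprilysin peptidases, had 6.83 and 2.77 TS CPM in WT and 11.3 and 11.6 in csb-1, a difference of -1.29 (limma adjusted p = 0.00191). Y17D7C.1 had 6.46 and 3.07 against 10.7 and 12.3, a difference of -1.27. For srw-101 and srbc-44, both chemoreceptor genes, WT replicate 2 held 1.23 TS CPM each, and without it the differences were -0.41 and -0.38 with limma adjusted p of 0.242 and 0.323. srbc-44 was also not called without csb-1 replicate 1 (limma adjusted p = 0.124).

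Further families had medians below that of all genes on the TS. Against 18% gains and 3.75% losses among all genes, C-type lectins had 1 gain, clec-140 (0.62), and 15 losses (7.04%) among 213 genes, with a median of -0.28. The clec-140 call was lost without csb-1 replicate 2 (limma adjusted p = 0.0519). Among 284 F-box genes 12 had gains (4.23%) and 14 losses (4.93%), with a median of -0.19. Cuticle collagens had 0 gains and 3 losses (3.53%) among 85 genes with a median of -0.17, the losses being col-53, col-116 and col-132. The shares of losses in F-box and collagen genes were thus near that of all genes. Of 5 yolk protein genes, made by adults, vit-6 was lower in WT (-0.55), and this call was lost without csb-1 replicate 1 (limma adjusted p = 0.226) and without csb-1 replicate 2 (0.198). In twk potassium channels and insulin-like peptides no TS call was made in 44 and 18 genes, with medians of -0.08 in both. When scaled to the NTS, medians of the collagens (0.04), F-box genes (0.03), insulin-like peptides (0.12) and twk channels (0.14) turned positive. They stayed below the all-gene TS median, which was 0.22 at that scaling.

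NTS gains in WT were few and most lay where another gene runs the other way. Of the 51 genes, 39 (76.5%) overlap an annotated gene on the opposite strand, against 33.6% of all tested genes. For 37 of these the opposite gene was tested, and in 33 (89.2%) an opposite gene had a TS gain, against 783 of 3934 (19.9%) tested genes with a tested opposite gene. The reads in such an overlap are counted for both genes, as NTS of one and TS of the other, so that the counts are not independent.

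Examples among the NTS gains with an opposite gene, chosen after their values were seen, were klp-17 and clec-178. klp-17, a kinesin-like gene, had 15.004 and 19.98 NTS CPM in WT and 6.19 and 6.36 in csb-1, a difference of 1.40 (limma adjusted p = 0.000215), and -0.24 on its TS. clec-178 had 20.9 and 22.4 NTS CPM against 13.6 and 7.57, and skn-1, the stress-response transcription factor gene on its other strand, had 127 and 128 TS CPM against 86.9 and 67.5. The clec-178 call was lost without csb-1 replicate 2 (limma adjusted p = 0.53). In the repair gene ercc-1, with 4 opposite genes, the NTS held 207 and 224 CPM against 163 and 141, and the TS 205 and 192 against 201 and 170.

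Without an annotated opposite gene, 12 genes had an NTS gain. Among those averaging 100 or more reads, the 5 largest were F13B9.2, Y110A2AR.1, ZK686.6, T12G3.6 and F14F9.8. F14F9.8 had 23.5 and 23.7 NTS CPM in WT and 13.7 and 11.7 in csb-1, with TS values of 10.98 and 11.99 against 9.96 and 10.3. F13B9.2 had 20.4 and 18.8 against 10.6 and 9.01 on the NTS, and 17.7 and 12.6 against 15.2 and 15.3 on the TS. Their NTS differences were 0.87 and 0.97, and each of the 5 calls was lost without at least 1 csb-1 library. Without csb-1 replicate 2 the limma adjusted p were 0.186 (F13B9.2), 0.56 (Y110A2AR.1), 0.257 (T12G3.6) and 0.216 (F14F9.8). Without csb-1 replicate 1 they were 0.195 (ZK686.6), 0.0577 (Y110A2AR.1) and 0.103 (T12G3.6), and without WT replicate 2 that of Y110A2AR.1 was 0.0649.

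Mixed-stage xpc-1 replicate 1, whose genic reads lay on the TS in 84.5% of cases, gave a view of the same genes from another strain. Its NTS lay above its TS in 39 of the 51 genes with an NTS gain (76.5%), against 15.9% of all tested genes. Their median NTS level there was 24.4 RPKM (CPM per kilobase of gene), against 1.07 over all genes. Among the 12 without an annotated opposite gene, 7 (58.3%) had more NTS than TS reads in that library.

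The largest NTS losses among genes with no opposite gene, beside rpl-15 and srt-35, were T16A1.2 (-1.31), odr-3 (-1.30) and R03H10.7 (-1.15). odr-3, a G protein alpha subunit gene of odour-sensing neurons, had 6.34 and 3.69 NTS CPM in WT and 11.9 and 13.4 in csb-1, and 14.0 and 17.8 against 14.2 and 17.3 TS CPM that overlapped. Without csb-1 replicate 2 its NTS call was lost (limma adjusted p = 0.215). The T16A1.2 call was lost without WT replicate 2 (limma adjusted p = 0.0722), csb-1 replicate 1 (0.154) or csb-1 replicate 2 (0.216), and that of R03H10.7 likewise (0.264, 0.0844 and 0.652).

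The difference between WT and csb-1 rose with the TS level in mixed-stage xpc-1, where transcription-coupled repair alone is left. Tested genes were divided into 5 groups of equal size by TS RPKM in xpc-1 replicate 1, which the WT and csb-1 counts did not enter. From the lowest to the highest group the median TS difference was -0.32, -0.20, 0.01, 0.23 and 0.58 log2 units. Genes with a TS gain numbered 0, 3, 142, 987 and 2046. These were 0%, 0.0851%, 4.03%, 28.0% and 58.1% of their group, against 18% of all genes. Genes with a TS loss numbered 336, 236, 55, 20 and 14, or 9.53%, 6.70%, 1.56%, 0.568% and 0.397%, against 3.75%.

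On the NTS the medians of the same groups were -0.35, -0.27, -0.20, -0.16 and -0.18. NTS losses numbered 142, 126, 122, 87 and 45, or 4.03%, 3.58%, 3.46%, 2.47% and 1.28% of the group, against 2.96% of all genes. Leaving out chemoreceptors, the lowest group had medians of -0.30 (TS) and -0.32 (NTS). Over the 17619 genes the Spearman rank correlation between the TS difference and xpc-1 TS level was 0.712, and that between the NTS difference and the same level 0.228, given as descriptions across genes that share libraries. When scaled to the NTS, the TS median of the second lowest group turned to 0.02, against 0.22 over all genes.

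**Figure D4:**
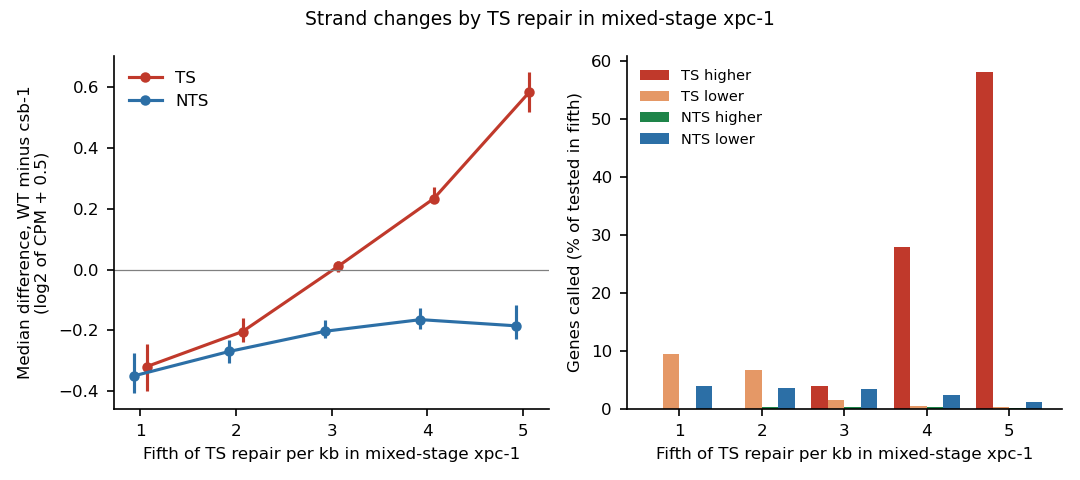
Genes in 5 groups of equal size by TS level in mixed-stage xpc-1 replicate 1 (x axis), with the median difference between WT and csb-1 on each strand (log2 CPM, with the range over the 4 pairs of libraries) and the share of genes called (%). The TS medians go from -0.32 to 0.58 and the NTS medians from -0.35 to -0.18.

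Along the chromosomes differences were smaller than between families. Median TS differences were 0.07, -0.01, 0.12, -0.02, -0.10 and 0.00 on the autosomes I to V and the X chromosome, taken in order, with -0.02 on chromosome V without its chemoreceptors. TS gains were called in 24.01%, 17.9%, 25.9%, 18.4%, 12.7% and 12.98% of their genes in that order. On the NTS the medians lay between -0.27 on chromosome V and -0.16 on X. Genes in the central part of the autosomes had a TS median of 0.03 with 21.8% gains, and those in the arms -0.05 with 14.8%. By gene length, TS medians ran from -0.12 in the second shortest of 5 groups of equal size to 0.11 in the longest.

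Within genes the TS gain was greatest at the 5′ end. In 5920 genes of at least 2 kb without an opposite gene, reads were summed over 10 equal parts of the gene. The ratio of WT to csb-1 on the TS was 1.32 in the first part, with 1.29 to 1.36 among the 4 pairs of libraries, and 1.03 in the last, with 0.973 to 1.08. In between it stood at 1.25, 1.22, 1.19, 1.17, 1.14, 1.14, 1.11 and 1.09. The ratio on the NTS was under 1 throughout, from 0.852 to 0.913, and in the last part it was 0.879 beside the 1.03 of the TS. These ratios are at total scaling. Another scaling would move those of all parts and both strands together, and none was run for these sums. For the median gene, NTS scaling moved the NTS difference from -0.23 to -0.01 log2 units. The first and last 250 bp gave 1.33 (1.28 to 1.38) and 1.01 (0.962 to 1.05) on the TS.

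In the 1151 of these genes in the highest xpc-1 group, the first part held 13.3 ± 0.635 (SD, n = 2) TS RPKM in WT. The csb-1 level there was 7.21 ± 0.275 (SD, n = 2), so that the ratio was 1.84, and the last part held 6.82 against 5.61, a ratio of 1.22. The pairs of libraries gave 1.73 to 1.95 at the start and 1.13 to 1.31 at the end, without overlap. On the NTS of the same genes the ratio was 0.958 at the start, 0.856 at its lowest and 0.919 at the end. In the 968 genes of the lowest group the ratio at total scaling was 0.778 to 0.831 on the TS and 0.772 to 0.815 on the NTS over all 10 parts.

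**Figure D5:**
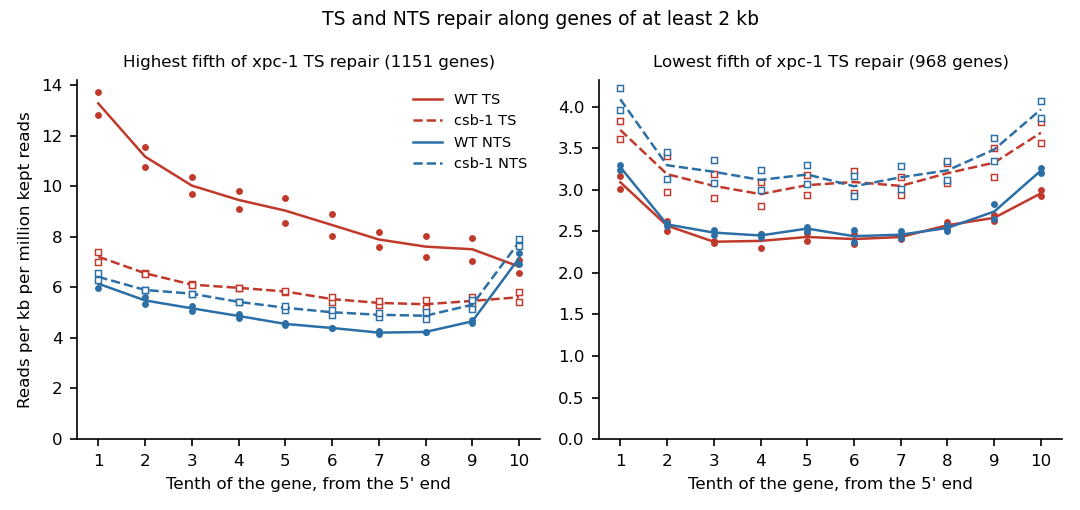
TS and NTS reads (RPKM, y axis) in 10 equal parts of the gene from the 5′ end (x axis), for 1151 genes of the highest (left) and 968 of the lowest (right) group by xpc-1 TS level, on different y scales. Points are single libraries and lines are means of the 2 libraries of a strain. On the left the TS of WT goes from 13.3 to 6.82 while that of csb-1 goes from 7.21 to 5.61. On the right both strands of WT lie below those of csb-1 at this total scaling.

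Gene by gene, the fall along the gene was not resolved. Of 9909 genes with enough reads on each side of their midpoint, the upstream part had a TS gain in 2198 (22.2%) and a loss in 294 (2.97%), and the downstream part had a gain in 968 (9.77%) and a loss in 221 (2.23%), by limma on each. NTS gains numbered 5 (0.0505%) upstream and 9 (0.0908%) downstream, and NTS losses 1 (0.0101%) and 14 (0.141%). The counts of TS gains were 1386 and 477 without csb-1 replicate 1, and 1419 and 514 without csb-1 replicate 2. The difference between the parts was called in 0 genes (0%) in either direction, with 819 higher and 184 lower at an unadjusted p under 0.05 and a median of 0.11, and in 334 and 183 genes without WT replicate 1. On the NTS the same difference had a median of 0.03, with 0 calls (0%) and 363 and 254 genes at an unadjusted p under 0.05, and 640 and 630 calls without WT replicate 1 and 26 and 31 without WT replicate 2.

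By part of the gene, ratios of WT to csb-1 were taken over 10458 genes. On the TS they were 1.23 in coding exons, 1.13 in first introns, 1.09 in untranslated regions and 1.06 in other introns. The 4 pairs of libraries gave 1.16 to 1.30, 1.08 to 1.18, 1.05 to 1.12 and 0.997 to 1.14, so that each range overlapped the next. On the NTS the ratios were 0.876, 0.877, 0.903 and 0.828 in the same order. Among the 2104 genes in the highest xpc-1 group the TS ratios were 1.69, 1.62, 1.39 and 1.39 in that order. Among the 2494 genes of the lowest group they were 0.828, 0.759, 0.791 and 0.757. On the NTS of both groups the ratio was likewise lower in other introns than in coding exons. That difference was thus not particular to the TS or to genes with a TS gain, and its cause was not tested.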

How the data were processed

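XR-seq reads of 8 libraries were read from the deposited files, which give 1 line per read with its position, strand, number of copies and a score. That score, between 0 and 42, is the mapping quality from the authors' alignment. According to the study's methods, the authors cut adaptors with cutadapt, aligned reads to ce11 (WBcel235) with Bowtie 2, deduplicated them and kept a mapping quality over 20 and lengths of 19 to 24 nt. Tool versions are not given in the sources used here. The deposited files still held reads of lower quality, so this filter was applied again.

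Each kept read on the 6 nuclear chromosomes was counted once and placed by its midpoint in protein-coding genes of Ensembl release 115. A read in overlapping genes counted for each. Reads on the strand that is not the annotated one were taken as TS. CPM were taken over all kept reads of a library, and genes with a mean of 40 or more reads on both strands together were tested. log2(CPM + 0.5) of each strand, the difference of the strands and the difference between the parts of a gene on either side of its midpoint (genes of at least 2 kb, mean of at least 20 reads a part) were tested with limma 3.58.1 in R 4.3.3 (lmFit, eBayes with trend, two-sided, 2 residual degrees of freedom). The reads were counted here, limma on log2 CPM was the main test, and voom weights on the counts were an alternative. A log2 difference on this scale understates the change of genes with few reads.

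Named genes were the 8, 5, 5 and 5 with the largest TS gain, TS loss, NTS gain and NTS loss. These were taken among called genes averaging 100 or more reads, with no opposite gene and no overlap between the strains. Further named genes were vbh-1, mrpl-17 and csb-1, the tissue markers and the member of each family with the most reads. The member with the largest TS difference among those of a family without an opposite gene was also named. Families were set by gene name. The members, families and tests were chosen with earlier results of these data known. The procedure was tested on simulated data with 200 genes changed. Replicate noise was set at 0.1 log2 units and was not estimated from these libraries. Of genes changed by 1 log2 unit it recovered 80.5% (TS) and 67% (NTS), with 7 and 5 false calls. Of those changed by 0.5 it recovered 13% and 3%, with 6 and 0 false calls. These rates hold for that setting and do not give the power or error of the comparison here. Alternatives covered scaling, pseudocount, filters, overlapping genes, copies, mapping quality, depth, voom weights, replicate number and each library left out. Other libraries of the study were not analysed here.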

Additional observations from a re-analysis of the deposited data

How the results depend on the processing

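TS gains numbered between 2061 (without genes that have an opposite gene) and 5334 (NTS scaling). TS losses numbered 192 at NTS scaling, 290 without the filter on low counts, 410 without opposite genes and 233 when libraries were thinned to the shallowest. NTS gains numbered 135 at NTS scaling, 0 without the filter, 9 without opposite genes, 33 with each position once, 28 with copies counted, 102 at any mapping quality, 0 thinned and 97 with voom weights. NTS losses numbered 103 at intergenic scaling, 12 at NTS scaling, 0 without the filter, 143 without opposite genes, 150 with each position once, 22 with copies counted, 0 thinned and 1235 with voom weights. Genes whose TS change exceeded the NTS change numbered 0 with a pseudocount of 0.1 and 2218 with 2, 0 without the filter, 2326 with a mean of at least 100 reads, 882 without opposite genes, 1231 with each position once and 0 with copies counted. The reverse numbered 3 at intergenic scaling, 2 at NTS scaling, 0 and 44 with those pseudocounts, 0 without the filter, 37 with at least 100 reads, 10 without opposite genes, 26 with each position once, 0 with copies counted, 9 at any mapping quality and 11 thinned. TS gains upstream of the midpoint numbered 3536 at NTS scaling, 1348 without opposite genes and 1221 thinned, and downstream 2141, 503 and 419, and 614 without the filter. A TS change lower upstream than downstream was called in 1 gene without opposite genes. The median TS difference between upstream and downstream was 0.11 over 9909 genes. For reads summed over the 5920 genes without an opposite gene, the log2 ratios differed by 0.37 between the first and last of 10 equal parts. Between the first and last 250 bp they differed by 0.40. These sums are no medians over genes, so that position, statistic and gene set all differ from those of the 0.11.

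Leaving out 1 library gave 2161 to 3860 TS gains, 57 to 1870 TS losses, 12 to 208 NTS gains, 1 to 3338 NTS losses, and 0 to 4305 and 0 to 684 genes with unequal strands. Upstream and downstream TS gains ranged from 1386 to 2351 and from 477 to 1449. The difference between the parts was called in 0 to 334 and 0 to 183 genes (TS) and 0 to 640 and 0 to 630 (NTS). The strain left with 1 library was assumed to vary like the other, and the cause of these changes was not tested.

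Replicate numbers did not pair the libraries, since deviations of same-numbered libraries correlated by 0.023 (TS) and 0.048 (NTS). With the replicate number as a block, calls numbered 3501 and 929 (TS), 84 and 1394 (NTS), 1735 and 67 between the strands, and 1 between the parts of a gene on the TS, lower in WT.

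Over the 98 named genes, 1558 of 1619 TS values under the alternatives stayed on the same side of the threshold, 39 lost and 22 gained a call and 0 reversed, and on the NTS 1531, 57, 31 and 0. Of 1521 values of the difference between the strands, 1229 stayed on the same side, 116 lost and 176 gained a call. Voom weights were not run for differences between strands or parts of genes. Depth limits genes that hold few reads in WT replicate 2.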

Other observations

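Several families lay near the all-gene median on both strands, and their shares of called genes are to be read against 18% TS gains and 3.75% TS losses among all genes. Of 85 neuropeptide genes, flp-9 had a TS gain (0.47) and flp-3 a TS loss (-0.83), with a TS median of -0.05. Transthyretin-related genes had 6 TS gains (10.9%) and 0 losses among 55 and a median of 0.02. Among those without an opposite gene the largest called gain was in ttr-26, with 9.15 and 12.3 TS CPM in WT against 4.68 and 6.13 in csb-1. That call was lost without csb-1 replicate 1 (limma adjusted p = 0.0895). Of 62 ceh homeobox genes 7 (11.3%) had a gain and 1, ceh-49, a loss (-0.72). Of 181 genes for the detoxification enzymes cyp, ugt and gst, 9 (4.97%) had a gain and 7 (3.87%) a loss. When scaled to the NTS, the TS medians of the neuropeptide (0.17), ceh (0.16) and detoxification (0.12) genes were positive, against 0.22 over all genes.

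Single genes with a called TS gain were also found among nuclear hormone receptors (family TS median 0.14) and F-box genes (-0.19). The nuclear hormone receptor nhr-58 had 27.2 and 35.7 TS CPM in WT against 12.97 and 11.8 in csb-1 (log2 difference 1.30, limma adjusted p = 6.66e-06), and 18.7 and 13.8 against 16.6 and 15.3 on the NTS. The F-box gene fbxa-167 had 19.4 and 23.7 against 8.60 and 11.5 on the TS (1.07), and 8.54 and 10.1 against 9.66 and 8.18 on the NTS.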
